A study of Mus musculus with 15 samples.

Results

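The leukotriene and 15-lipoxygenase pathway was read in whole mouse lung as 10 genes, chosen by symbol: Pla2g4a, Alox5, Alox5ap, Lta4h, Ltc4s, Alox15, Alox12, Cysltr1, Cysltr2 and Ltb4r1. All 10 were found among the 24054 genes of the count table, and all 10 were among the 15905 that passed the filter on low counts. RNA came from the lungs of 15 female wild-type Balb mice in 3 groups of 5. The saline group was sham-treated with saline and received the isotype control antibody. Mice of the OVA group were sensitised to ovalbumin by intraperitoneal injection, challenged with nebulised ovalbumin, and given the isotype control. The anti-IL-4Ra group had the same ovalbumin exposure and received a monoclonal antibody to mouse IL-4Ra, the receptor chain shared by IL-4 and IL-13, at 30 mg/kg. The sources used here give no ages, no times of dosing or collection, and no dose for the isotype control. Ovalbumin exposure is a short-term model of allergic airway inflammation, and the libraries are of whole lung, not of sorted cells.

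Leukotrienes are made from arachidonic acid, which a cytosolic phospholipase A2 frees from membranes. 5-Lipoxygenase, with its membrane partner FLAP, turns it into leukotriene A4; a hydrolase then makes the neutrophil attractant leukotriene B4, and a glutathione-conjugating synthase makes the cysteinyl leukotrienes that contract airway muscle and raise vascular permeability. 12- and 15-lipoxygenases oxidise arachidonic acid at other carbons and feed the hydroxy acids and lipoxins. In human airway epithelium and monocytes, the 15-lipoxygenase gene is known to be induced by IL-4 and IL-13.

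The largest fold changes of members were in lipoxygenase genes, so the 3′ ends of their coding sequences are given here to show how alike, and how separable, they are. Each run is the last 60 coding bases, stop codon included, from the GENCODE M21 annotation of GRCm38, 5′ to 3′ on the coding strand. Capitals mark the last codon before the stop, an isoleucine in every one of these genes, which in lipoxygenases is a ligand of the catalytic iron.
Alox15: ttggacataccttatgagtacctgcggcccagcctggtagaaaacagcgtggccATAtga
Alox12e: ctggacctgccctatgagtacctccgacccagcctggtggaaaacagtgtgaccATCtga
Alox12: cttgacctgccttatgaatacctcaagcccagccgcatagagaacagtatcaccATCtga
Alox8: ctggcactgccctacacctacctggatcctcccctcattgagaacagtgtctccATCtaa
Alox5: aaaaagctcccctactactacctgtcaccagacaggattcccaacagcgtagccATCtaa
Alox15 and Alox12e were identical at 50 of these 60 bases, Alox15 and Alox12 at 43, and Alox15 and Alox5 at 33. Over the aligned coding sequence, Alox15 shared 69.3% of bases with Alox12e and 67.8% with Alox12, but the longest unbroken shared run was 16 bases and 18 bases. No stretch of 50 bases in Alox15 or Alox5 transcripts occurred in another annotated gene. In Alox12, at most 10 of 4036 such stretches did so for any other gene. Alox12 was nevertheless the only member with fractional expected counts, in 15 of 15 libraries, so part of its reads were shared out by estimate.

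The 10 members did not move as a block. After ovalbumin, Alox15 rose 8.30-fold, Ltb4r1, the leukotriene B4 receptor, rose 1.60-fold, and Alox12 fell by 0.98 on the log2 scale. The other 7 members did not pass the test. The 3 of 10 called stand against 37.1% of all 15905 genes called in the same comparison (19.3% higher and 17.8% lower), and the 2 of 10 whose groups did not overlap stand against 26.6%. The share of members called was near that of all genes, and the 4 of 10 with an unadjusted p under 0.05 stand against 46.7%. The median log2 fold change was -0.02 over the members and 0.02 over all genes tested. The threshold for a call was 0.05 for the adjusted p of edgeR's quasi-likelihood test with Benjamini-Hochberg adjustment over all genes tested, and every adjusted p and standard error (SE) of a gene below comes from that test unless another is named. Levels are CPM, counts scaled to a common library total after TMM adjustment.

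Anti-IL-4Ra against OVA gave 0 of 10 members called by edgeR, where 0.302% of all genes were called (0.138% higher and 0.163% lower). Without adjustment, 2 of 10 had p under 0.05, Alox15 and Alox5ap, against 5.68% of all genes. DESeq2 and limma voom each called 1 member, Alox15. Alox15 was also the only member whose groups did not overlap, against 1.17% of all genes. The median log2 fold change was 0.04 over the members and -0.0021 over all genes tested. Anti-IL-4Ra against saline called 2 of 10, Alox15 higher and Alox12 lower, where 26.6% of all genes were called (13.9% higher and 12.7% lower). Alox12 was the only member without overlap there, against 19.8% of all genes, and 3 of 10 had an unadjusted p under 0.05, against 39.6%. The OVA group stands in the first 2 comparisons and the saline group in the first and last, so the 3 sets of values are not independent.

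**Figure D1:**
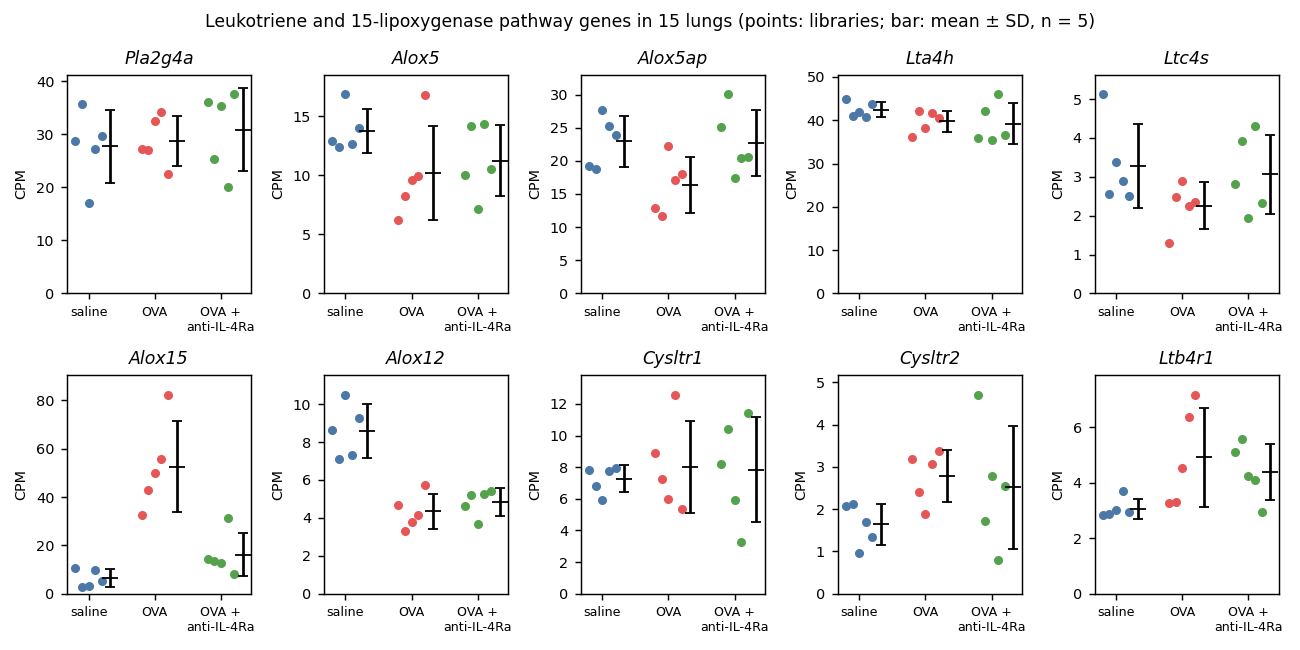
CPM of each of the 10 members in the 15 libraries (y axis, CPM; x axis, group), with a point for each library and a bar for the mean ± SD of 5. In Alox15 the OVA libraries, 32.4 to 82.4 CPM, lie above all others, and in Alox12 the saline libraries, 7.09 to 10.5 CPM, lie above all others.

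Alox15 encodes the mouse 12/15-lipoxygenase of macrophages and eosinophils, the counterpart of human 15-lipoxygenase. The saline libraries held 10.6, 2.79, 2.98, 9.86 and 5.44 CPM (replicates 1 to 5; 6.33 ± 3.71, SD, n = 5). The OVA libraries held 32.4, 42.9, 49.8, 55.7 and 82.4 CPM (52.6 ± 18.7). The anti-IL-4Ra libraries held 14.5, 13.6, 12.8, 31.5 and 8.07 CPM (16.1 ± 8.96). Every OVA library was above every saline library and above every anti-IL-4Ra library, with the closest pair 32.4 in OVA and 31.5 in anti-IL-4Ra replicate 4; the saline and anti-IL-4Ra ranges overlapped.

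Against saline, Alox15 rose with ovalbumin by 3.05 ± 0.43 on the log2 scale (SE; 95% interval 2.14 to 3.97; adjusted p = 0.00014). It was called with each of the 15 libraries left out in turn. Anti-IL-4Ra against OVA gave -1.71 ± 0.41 (95% interval -2.58 to -0.84), a level 3.27-fold lower, with an adjusted p of 0.13 by edgeR over all genes. The same contrast had an adjusted p of 0.0047 by DESeq2 and 0.045 by limma voom, and an edgeR adjusted p of 0.030 without anti-IL-4Ra replicate 4 (log2 fold change -2.08). Whether this difference passed the threshold thus depended on the tool and on that library, while its direction was the same in every alternative run. Anti-IL-4Ra against saline gave 1.34 ± 0.41 (2.54-fold, adjusted p = 0.026), and this call was lost without anti-IL-4Ra replicate 4 (0.92, adjusted p = 0.083) and without saline replicate 2, 3 or 5 (adjusted p of 0.061, 0.058 and 0.060).

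**Figure D2:**
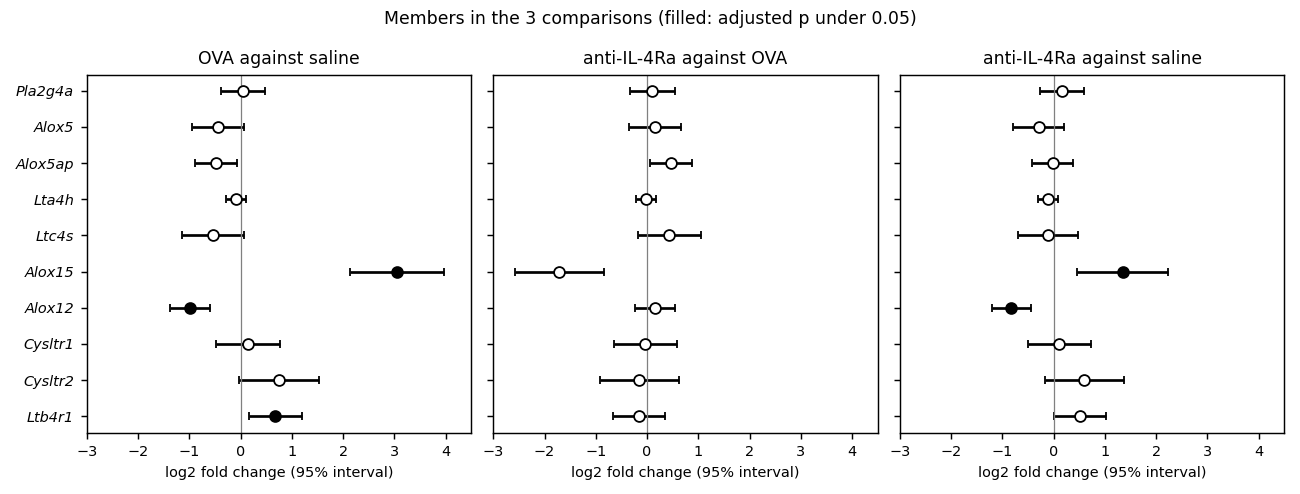
Log2 fold change of the 10 members in the 3 comparisons (x axis, log2 fold change; y axis, gene), with 95% intervals as bars and filled points at an adjusted p under 0.05 by edgeR. Alox15 is filled at 3.05 for OVA against saline and open at -1.71 for anti-IL-4Ra against OVA.

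Other values also differed between the groups. Rn45s, the 45S ribosomal RNA precursor, took 1.19 to 2.88% of counts in the saline libraries, 4.31 to 12.4% with OVA and 1.65 to 12.4% with anti-IL-4Ra, so saline and OVA did not overlap. The mean share was 7.14 ± 3.36% with OVA and 7.34 ± 4.69% with anti-IL-4Ra (SD, n = 5). Rn45s and Alox15 had a Pearson r of 0.765 over the 15 libraries on the log2 CPM scale and 0.612 after the group means were removed. Saline replicate 1 (2.88%) and OVA replicate 5 (12.4%) had the highest share and the highest Alox15 of their groups. Saline replicate 2 was lowest in both, while in OVA replicate 4 had the lowest share and replicate 1 the lowest Alox15. Anti-IL-4Ra replicate 4 had the highest share of its group, 12.4%, and replicate 5 the lowest, 1.65%, as they had the highest and lowest Alox15. Replicates 1, 2 and 3 of that group held 14.5, 13.6 and 12.8 CPM of Alox15 at a share of 9.80, 3.10 and 9.79%. The Rn45s share, on the log2 scale, was also fitted as a covariate by edgeR. For Alox15, OVA against saline was then 2.06 (adjusted p = 0.019), anti-IL-4Ra against OVA -1.67 (adjusted p = 0.037) and anti-IL-4Ra against saline 0.39 (adjusted p = 0.63). Since the share separates saline from OVA, its part and that of the exposure cannot be told apart there.

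A list held 15 genes known to respond to IL-4 and IL-13 in macrophages, all tested. With OVA, 14 were called higher and 1 lower, against 19.3% and 17.8% of all genes. With anti-IL-4Ra against OVA, 4 were called lower and 0 higher, against 0.163% and 0.138%. Libraries of whole lung do not show which cells held this RNA. Summed over the list, the saline libraries held 701 to 818 CPM, the OVA libraries 9129 to 16401 CPM and the anti-IL-4Ra libraries 1965 to 9630 CPM. Most of this sum came from few genes: of a mean of 12139 CPM with OVA, Retnla held 6462, Chil3 2629 and Chil4 2080 CPM. Arg1, the arginase of IL-4-activated macrophages, fell by 4.32 ± 0.38 on the log2 scale with anti-IL-4Ra, to 3.97 to 14.3 CPM from 94.6 to 241 CPM. In that comparison the median of the list was -0.81 and 11 of 15 genes were not called. Retnla (-0.47), Chil3 (-1.27) and Chil4 (-2.53) were among those not called. Arg1 and Alox15 had a Pearson r of 0.91 over the 15 libraries on the log2 CPM scale and 0.52 after the group means were removed; both values share the groups and the library depth. After the group means were removed, other genes of that list had an r with Alox15 of 0.65 (Ccl24), 0.18 (Chil4), 0.16 (Retnla) and 0.056 (Chil3).

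Eosinophil markers also moved. Of 8 on the list, 7 were tested. With OVA, 4 were called higher and 2 lower, against 19.3% and 17.8% of all genes. With anti-IL-4Ra against OVA, 0 were called and 5 had an unadjusted p under 0.05 by edgeR, against 0.302% and 5.68% of all genes. Summed, the saline libraries held 67.4 to 88.1 CPM, the OVA libraries 89.9 to 194 CPM and the anti-IL-4Ra libraries 59.6 to 134 CPM. Prg2, eosinophil major basic protein, was at 0.039 to 0.37, 2.63 to 21.6 and 0.68 to 4.78 CPM in those groups. Prg2 thus made up little of the saline sum. Ear2 and Siglecf of this list are also on the alveolar macrophage list given below, so the sum is not of eosinophil genes alone. Prg2 and Alox15 were highest in the same libraries, OVA replicate 5 and anti-IL-4Ra replicate 4, which also had the highest Rn45s shares of their groups. The summed list was not highest in those libraries. It was highest in OVA replicate 4 (194 CPM, against 98.3 CPM in replicate 5) and in anti-IL-4Ra replicate 2 (134 CPM, against 71.7 CPM in replicate 4). After the group means were removed, the Pearson r with Alox15 over the 15 libraries was 0.58 for Prg2 and 0.12 for Ccr3, the eotaxin receptor. Epx, eosinophil peroxidase, was at 0 counts in 3 of 5 saline libraries, at up to 4.51 CPM with OVA and at 0.11 to 0.55 CPM with anti-IL-4Ra. With anti-IL-4Ra against OVA, Prg2 gave -1.84 (adjusted p = 0.40) and Epx -2.63 (adjusted p = 0.066), neither called.

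The alveolar macrophage list, 11 genes, gave 2 higher and 4 lower with OVA, against 19.3% and 17.8% of all genes. Its summed level was 418 to 1249, 1486 to 4869 and 711 to 3011 CPM with saline, OVA and anti-IL-4Ra. Chil3, one of its genes, alone made up 1034 to 4186 CPM with OVA. The median log2 fold change of the list went the other way from the sum, -0.18 for OVA against saline and 0.44 for anti-IL-4Ra against OVA. In the latter, 0 of 11 were called and 7 had an unadjusted p under 0.05 by edgeR, against 0.302% and 5.68% of all genes. The monocyte and recruited macrophage list, 12 genes, gave 5 higher and 2 lower with OVA, beside the same shares. It gave 2 higher with anti-IL-4Ra against OVA, against 0.138% of all genes. Its summed level was 744 to 1079, 730 to 1128 and 1075 to 2147 CPM with saline, OVA and anti-IL-4Ra. In whole lung, fewer cells of a type and less RNA per cell cannot be told apart, and the part of these cell types and of Rn45s in the Alox15 result was not tested beyond the values given.

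**Figure D3:**
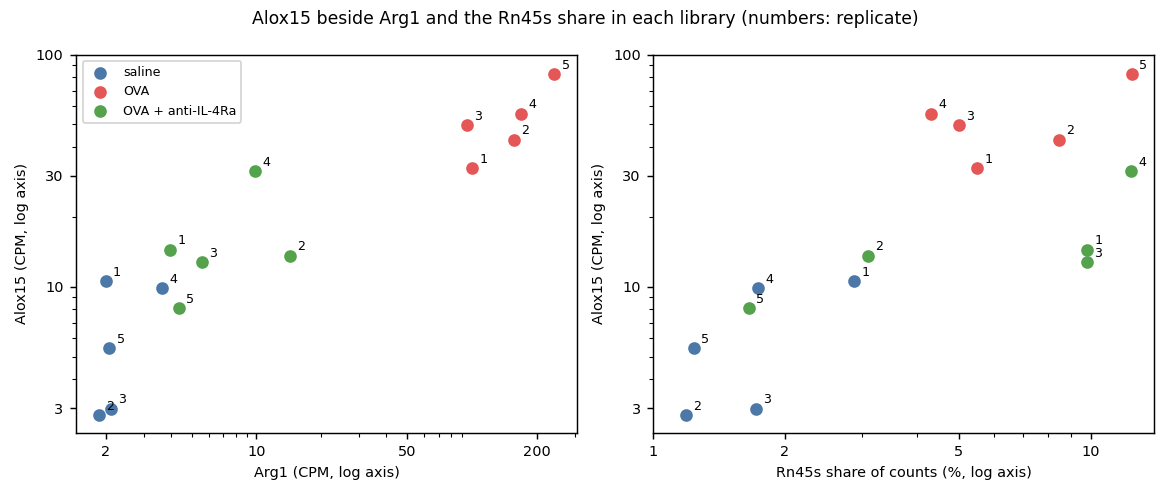
Alox15 CPM in each library (y axis, log scale) against Arg1 CPM and against the percent of counts on Rn45s (x axes, log scale), with a point per library, colored by group and numbered by replicate. The OVA points lie highest on the Alox15 axis, and anti-IL-4Ra replicate 4, at 31.5 CPM, is nearest to them.

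Alox12 encodes the platelet-type 12-lipoxygenase. Its saline libraries held 8.66, 7.09, 10.5, 7.30 and 9.28 CPM (8.57 ± 1.42). The OVA libraries held 4.70, 3.31, 3.78, 4.17 and 5.74 CPM (4.34 ± 0.94). The anti-IL-4Ra libraries held 4.63, 5.23, 3.66, 5.25 and 5.40 CPM (4.83 ± 0.72). All 5 saline libraries were above all 10 libraries with ovalbumin, and the anti-IL-4Ra range lay within the OVA range.

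Alox12 fell by 0.98 on the log2 scale with OVA (SE 0.18, adjusted p = 0.00089), to a level 1.98-fold lower, and was 0.82 below saline with anti-IL-4Ra (-0.82 ± 0.18, adjusted p = 0.0044). Anti-IL-4Ra against OVA gave 0.16 ± 0.18 with a 95% interval of -0.23 to 0.55, and the 0.98 by which OVA lay under saline is above that interval. With the Rn45s share as a covariate the fold changes against saline were -0.95 and -0.80 with adjusted p of 0.052 and 0.11, and both calls were lost. Of 10 platelet and megakaryocyte markers tested, 5 were called lower and 0 higher with OVA, against 17.8% and 19.3% of all genes. With anti-IL-4Ra against saline, 3 were called lower and 0 higher, against 12.7% and 13.9%. Summed, the saline libraries held 78.8 to 110 CPM, the OVA libraries 75.8 to 94.7 CPM and the anti-IL-4Ra libraries 64.3 to 89.0 CPM. All 7 red blood cell markers tested and 9 of 10 endothelial markers were also called lower with OVA. So were 7 of 10 alveolar epithelium markers and 4 of 10 club and ciliated epithelium markers, against 17.8% of all genes. The part of blood content and of these cell types in the Alox12 result was not tested.

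Alox12e, the mouse epidermal-type 12-lipoxygenase, lies on chromosome 11 like Alox12 and Alox15 and moved the other way from Alox12. Its counts were 16, 10, 0, 2 and 1 with saline, 48, 66, 377, 259 and 34 with OVA, and 161, 12, 115, 63 and 13 with anti-IL-4Ra. Every OVA library was above every saline library in CPM, but the OVA libraries themselves spread from 3.49 to 25.5 CPM. It rose by 5.41 ± 0.98 on the log2 scale with OVA (adjusted p = 0.00078) from 29 counts over the saline group, and anti-IL-4Ra against OVA gave -1.08 ± 0.76, not called. Alox12e was not a member by symbol, and is given because it is the gene nearest to Alox15 in coding sequence. Alox8, the mouse 8-lipoxygenase, rose by 0.73 ± 0.27 with OVA (adjusted p = 0.044), from 13.1 ± 4.95 to 21.7 ± 6.60 CPM, with overlap between the groups.

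The promoters of Alox12 and Alox12e are printed because these nearby genes moved in opposite directions. RefSeq windows on GRCm38.p6, from 250 bases before to 50 bases after the start, were found for 7 of the 10 members and for Alox12e, and not for Alox15, Alox5ap or Cysltr1. The capital marks the first transcribed base. Alox12 is on the minus strand at chr11:70255321-70255620 and Alox12e on the minus strand at chr11:70322481-70322780.
Alox12: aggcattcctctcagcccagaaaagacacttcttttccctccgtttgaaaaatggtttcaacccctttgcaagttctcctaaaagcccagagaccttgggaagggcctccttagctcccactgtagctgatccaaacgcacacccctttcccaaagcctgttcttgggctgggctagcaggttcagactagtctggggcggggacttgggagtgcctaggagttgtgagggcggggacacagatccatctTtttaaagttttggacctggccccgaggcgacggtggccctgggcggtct
Alox12e: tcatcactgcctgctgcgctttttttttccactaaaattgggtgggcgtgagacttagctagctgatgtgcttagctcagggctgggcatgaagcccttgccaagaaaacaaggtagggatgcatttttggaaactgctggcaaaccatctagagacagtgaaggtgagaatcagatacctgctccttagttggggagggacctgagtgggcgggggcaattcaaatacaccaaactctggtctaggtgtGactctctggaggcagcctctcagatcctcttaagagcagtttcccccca
The STAT-type motifs TTCNNNNGAA and TTCNNNGAA, whose fixed letters read the same on both strands, were in 6.95% and 8.3% of all 32851 promoter windows. Neither was in these Alox12 and Alox12e windows. Among the members with a window, Cysltr2 alone held TTCNNNNGAA, starting 133 bases before the start site. A match in letters is a description of the window only.

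Pla2g4a, the cytosolic phospholipase A2 that supplies arachidonic acid, was level across the groups within their spread. The group levels were 27.7 ± 6.80, 28.7 ± 4.72 and 30.9 ± 7.80 CPM for saline, OVA and anti-IL-4Ra. OVA against saline gave 0.05 with a 95% interval of -0.38 to 0.48, so a 2-fold change in either direction was outside the interval.

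Alox5, the 5-lipoxygenase that starts leukotriene synthesis, was not called in any comparison. The saline libraries held 12.9, 12.4, 16.9, 12.7 and 14.0 CPM, the OVA libraries 6.21, 8.27, 9.59, 9.99 and 16.8 CPM, and the anti-IL-4Ra libraries 7.19 to 14.3 CPM. In OVA, 4 of 5 libraries were below all saline libraries and replicate 5 was among the highest. OVA against saline gave -0.44 ± 0.24 (adjusted p = 0.16), and without OVA replicate 5 it gave -0.69 with an adjusted p of 0.020.

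Alox5ap encodes FLAP, which presents arachidonic acid to 5-lipoxygenase. The saline libraries held 19.2, 18.8, 27.6, 25.2 and 23.9 CPM (22.9 ± 3.85), the OVA libraries 12.9, 11.7, 22.2, 17.2 and 18.0 CPM (16.4 ± 4.24), and the anti-IL-4Ra libraries 25.0, 30.0, 17.4, 20.5 and 20.5 CPM (22.7 ± 4.93). The OVA mean was the lowest, and it overlapped saline through OVA replicate 3 and anti-IL-4Ra through OVA replicates 3 and 5. OVA against saline gave -0.48 ± 0.19 (adjusted p = 0.057, edgeR), and anti-IL-4Ra against OVA gave 0.47 ± 0.19 (adjusted p = 0.71). The first was called by DESeq2 (adjusted p = 0.049) and by edgeR without saline replicate 2, OVA replicate 3, or anti-IL-4Ra replicate 2 or 4 (adjusted p of 0.039, 0.012, 0.034 and 0.044). Of its 50-base stretches, 6.8% lie in an antisense gene, Gm19719, and the sources used here do not state whether counting used the strand.

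Lta4h, the hydrolase that makes leukotriene B4, varied least among the members in SE. It was at 42.4 ± 1.73, 39.7 ± 2.47 and 39.2 ± 4.64 CPM with saline, OVA and anti-IL-4Ra, and OVA against saline gave -0.09 with a 95% interval of -0.29 to 0.10. Ltc4s, the synthase of leukotriene C4, was at 3.29 ± 1.08, 2.26 ± 0.60 and 3.06 ± 1.02 CPM. Its OVA against saline value was -0.55 with an interval of -1.15 to 0.06, so a 2-fold fall lay within it, and 15.2% of its 50-base stretches lie in the antisense gene Gm26542.

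Ltb4r1 encodes the high-affinity leukotriene B4 receptor BLT1 of neutrophils, eosinophils and effector T cells. The saline libraries held 2.82, 2.87, 3.03, 3.70 and 2.93 CPM (3.07 ± 0.36), the OVA libraries 3.26, 3.31, 4.53, 6.36 and 7.18 CPM (4.93 ± 1.78), and the anti-IL-4Ra libraries 5.12, 5.58, 4.26, 4.10 and 2.95 CPM (4.40 ± 1.01). Saline replicate 4 lay above 2 of the OVA libraries, so the groups overlapped. OVA against saline gave 0.68 ± 0.24 (adjusted p = 0.037), close to the threshold. The call was lost with limma voom (adjusted p = 0.052), with no filter on low counts (0.058), with the replicate block (0.088), with the Rn45s covariate (0.41) and in 9 of 15 fits that left out 1 library (adjusted p up to 0.12), those without saline 1, 2, 3 or 5, OVA 3, 4 or 5, or anti-IL-4Ra 1 or 4. Anti-IL-4Ra against OVA gave -0.16 with an interval of -0.67 to 0.35.

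Of 12 neutrophil markers tested, 1 was called higher and 6 lower with OVA, and 8 of 9 T cell markers were called higher. Of all genes, 19.3% were called higher and 17.8% lower. Itgax, on the alveolar macrophage list, had a Pearson r with Ltb4r1 of 0.775 over the 15 libraries and 0.866 after the group means were removed. Chil3 of the same list had 0.64 and 0.234. The part of these cell types in the Ltb4r1 result was not tested. Cysltr1, the main cysteinyl leukotriene receptor of airway muscle, was at 7.27 ± 0.86, 8.01 ± 2.89 and 7.84 ± 3.31 CPM with saline, OVA and anti-IL-4Ra. Its interval for OVA against saline, -0.47 to 0.76, includes 0. Cysltr2, the second receptor, was at 1.64 ± 0.50, 2.79 ± 0.62 and 2.52 ± 1.45 CPM and was not called with OVA (0.75 ± 0.36, adjusted p = 0.12), although the fit on the 10 libraries of the 2 groups alone gave an adjusted p of 0.042.

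Around the 10 members, 50 other genes of the pathway were listed, of which 40 were tested. With OVA 11 were called higher and 9 lower, with anti-IL-4Ra against OVA 1 higher and 0 lower, and with anti-IL-4Ra against saline 8 higher and 7 lower. The median log2 fold changes were 0.07, -0.03 and 0.14. With anti-IL-4Ra, the share of all genes called was 0.302% against OVA and 26.6% against saline. The 20 of 40 called with OVA stand against 37.1% of all genes (19.3% higher and 17.8% lower). Of 12 phospholipases A2, 6 were called higher and 1 lower with OVA, and of 20 partner, conversion and export genes 2 were called higher and 6 lower; these counts were read against the same shares and carry no test.

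Among the phospholipases, Pla2g4c, a calcium-independent cytosolic form, was at 0.37 to 0.54 CPM in the saline libraries, 2.87 to 12.4 CPM in the OVA libraries and 0.97 to 7.44 CPM in those with the antibody. The saline libraries lay below all others. It rose by 4.14 ± 0.52 with OVA (adjusted p = 6.3e-05) and by 2.95 ± 0.52 with anti-IL-4Ra against saline (adjusted p = 0.0011); anti-IL-4Ra against OVA gave -1.19 ± 0.45 (adjusted p = 0.63). Secreted Pla2g2d (2.06) and Pla2g5 (1.69) and the platelet-activating factor hydrolase Pla2g7 (0.93) also rose with OVA on the log2 scale, and the pancreatic-type Pla2g1b fell by 1.57.

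Cotl1, whose protein binds 5-lipoxygenase, rose by 1.31 on the log2 scale with OVA (adjusted p = 0.00011), and Cyp4f18, which hydroxylates leukotriene B4 in mouse neutrophils, rose by 1.55 (adjusted p = 0.0036). Dpep1, which cleaves leukotriene D4 to E4, fell by 1.34 (adjusted p = 0.0063). Mgst3, which can conjugate leukotriene A4 with glutathione, fell from 15.8 ± 2.02 to 6.79 ± 3.27 CPM (adjusted p = 0.0028), and Gpx4, which reduces lipid hydroperoxides, fell by 0.70 (adjusted p = 0.0038). For these 5 genes anti-IL-4Ra against OVA lay between -0.26 and 0.24 and none was called. Mgst1, Ephx1 and Lpcat3 were also called lower with OVA. With anti-IL-4Ra against OVA they gave 0.44 (unadjusted p = 0.038, edgeR), 0.29 and -0.02, and none was called.

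Fpr2, a formyl peptide receptor also proposed to bind lipoxin A4, was the only listed pathway gene called with anti-IL-4Ra against OVA. The saline libraries held 9.79 to 12.5 CPM, the OVA libraries 1.23 to 3.79 CPM and the anti-IL-4Ra libraries 6.53 to 22.2 CPM. No OVA library reached any library of the other groups. It fell by 2.15 with OVA (SE 0.31) and rose by 2.63 ± 0.32 on the log2 scale with anti-IL-4Ra (adjusted p = 0.00082, edgeR). Fpr2 is expressed by neutrophils and other myeloid cells. The 12 neutrophil markers tested had a median log2 fold change of -0.73 with OVA. Of them 1 was called higher and 6 lower, against 19.3% and 17.8% of all genes. With anti-IL-4Ra against OVA these markers had a median of 0.96. There 0 were called and 6 had an unadjusted p under 0.05 by edgeR (0.302% and 5.68% of all genes). The summed level of the neutrophil markers was 240.1 to 388, 320.4 to 504 and 316 to 609 CPM with saline, OVA and anti-IL-4Ra, and their part in the Fpr2 result was not tested.

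**Figure D4:**
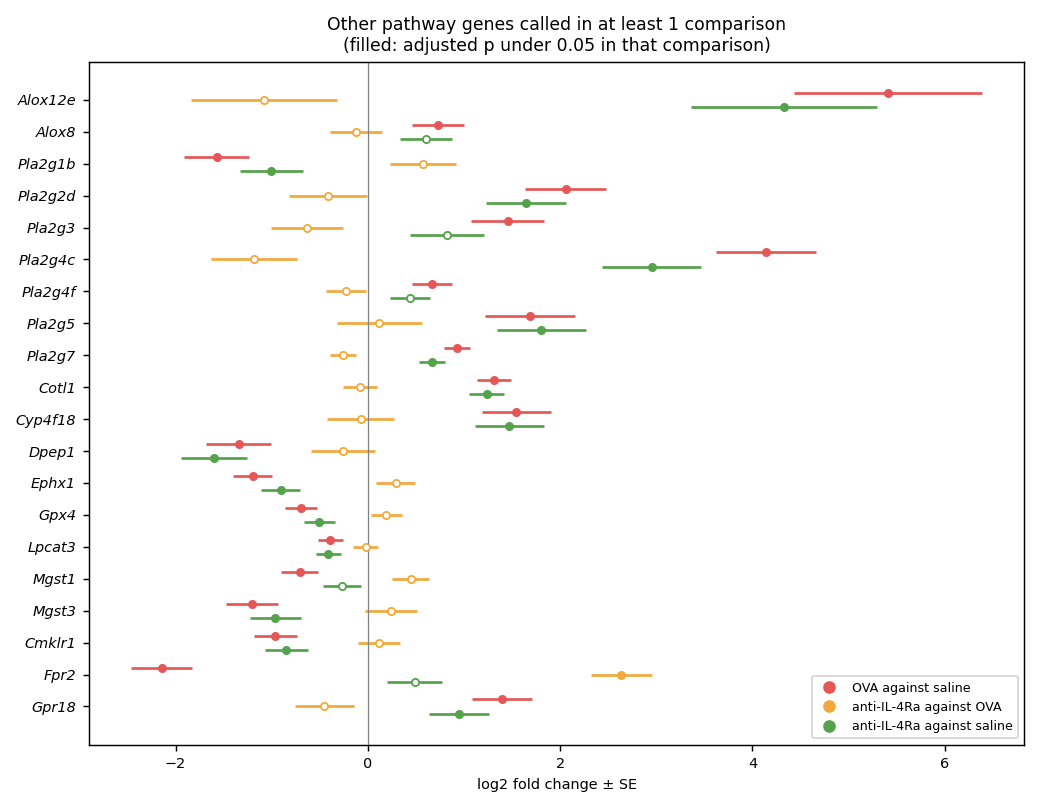
Log2 fold change (x axis) with SE bars for the listed pathway genes outside the 10 members that were called in at least 1 comparison (y axis, gene), for the 3 comparisons, with filled points at an adjusted p under 0.05 by edgeR. Alox12e and Pla2g4c lie farthest right for OVA against saline, and Fpr2 is the only filled point for anti-IL-4Ra against OVA.

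The tested genes most like each called member were taken by Pearson r of log2 CPM over the 15 libraries. For Alox15 they were Ceacam19 (r = 0.95), Meg3 (0.94) and H2-M2 (0.94), with 0.84, 0.74 and 0.78 after the group means were removed. For Alox12 they were Gfod1 (0.96), Prkce (0.95) and Upk1a (0.95), with 0.83, 0.83 and 0.75. For Ltb4r1 they were Adam19 (0.89), Atp6v0a4 (0.87) and Loxl2 (0.86), with 0.81, 0.89 and 0.79. These correlations share groups and depth and were picked as the highest of all tested genes, so they are descriptions.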

How the data were processed

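Per the labels' protocols, lungs were frozen and homogenised, RNA was extracted, and strand-specific dUTP libraries were made; ribosomal RNA depletion and oligo-dT beads both appear in the protocols. The authors deposited expected counts per gene symbol, 1 column for each of 15 mice, without normalization. Bowtie2 2.1.0, RSEM 1.2.15 and the human build hg38 are named in the submitters' processing notes, but the symbols are mouse symbols, so values were treated as mouse genes; the sources used here state neither the annotation nor the strand setting of the counting. RSEM shares ambiguous reads by estimate. Totals per library were 16774300 to 27570700 (saline), 10042800 to 14706100 (OVA, isotype) and 12317800 to 16914500 (OVA, anti-IL-4Ra). The alveolar epithelium markers, surfactant genes among them, summed to 5714 to 18331 CPM, so lung was present in every library.

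Expected counts were rounded, filtered by filterByExpr (15905 of 24054 genes kept), scaled by TMM and fitted for all 15 libraries together by edgeR 4.0.16 in R 4.3.3 (quasi-likelihood, two-sided, Benjamini-Hochberg over all tested genes). SEs were taken from the F statistic. The code was tested on simulated data. Alternatives were DESeq2 1.42.0, limma 3.58.1 voom, DESeq2 size factors, no filter, 2 groups only, Rn45s left out, the log2 of its share as a covariate, a replicate block, and each library left out. The labels call replicates biological; p-values measure the spread among these mice. Named genes were all members, pathway genes called in at least 1 comparison, marker genes beside a member's result, and the 3 genes most like each called member. Alox12e's sequence, and the marker genes Arg1, Prg2, Epx and Itgax, were singled out with their values known. Members and lists were chosen with earlier results of these data known. Siglec5 and Emr1 stood in by synonym for Siglecf and Adgre1.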

Additional observations from a re-analysis of the deposited data

Results flagged for a closer look

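In the 30 sets of 5 libraries (10 members in 3 groups), 2 held a library set apart from the rest by more than 71% of the group's range, Dixon's critical share for 5 samples, where chance would set apart about 5% of such sets. Alox15 in anti-IL-4Ra replicate 4 was at 31.5 CPM, and the nearest library of its group was at 14.5 CPM. Ltb4r1 in saline replicate 4 was at 3.70 CPM, and the nearest was at 3.03 CPM. Without anti-IL-4Ra replicate 4, Alox15 was called lower than with OVA (-2.08, adjusted p = 0.030 by edgeR) and was no longer called above saline.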

How the results depend on the processing

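With the Rn45s share as a covariate, 1 member was called for OVA against saline in place of 3, 4 other pathway genes in place of 20 and 752 of all genes (486 higher, 266 lower) in place of 5898; for anti-IL-4Ra against saline it was 0 members in place of 2, 1 other pathway gene in place of 15 and 373 genes (322 higher, 51 lower) in place of 4236. Saline and OVA do not overlap in that share, so the share and the exposure cannot be told apart in it. For anti-IL-4Ra against OVA, DESeq2, limma voom and the Rn45s covariate each called 1 member in place of 0, and DESeq2 called 134 genes in place of 48. Leaving out 1 library gave 0 to 1 members for anti-IL-4Ra against OVA and 1 to 2 against saline. Directions that reversed belonged to members not called in the comparison concerned: Alox5ap against saline with anti-IL-4Ra became 0.13 with the Rn45s covariate and 0.012 with the replicate block. With 1 library left out, log2 fold changes for OVA against saline ran from -0.083 to 0.13 for Pla2g4a and -0.12 to 0.26 for Cysltr1. For anti-IL-4Ra against OVA they ran from -0.21 to 0.21 for Cysltr1, -0.47 to 0.094 for Cysltr2, -0.059 to 0.034 for Lta4h and -0.28 to 0.0072 for Ltb4r1, and for anti-IL-4Ra against saline from -0.17 to 0.066 for Alox5ap, -0.066 to 0.29 for Cysltr1 and -0.29 to 0.11 for Ltc4s. Replicate numbers are shared across groups in the labels, but deviations of same-numbered libraries correlated above 0.1 in only 2 of 15 pairs (-0.53 to 0.34), and the best correlate in another group had the same number in 2 of 30 cases, so the numbers were not taken as pairing. The replicate block lowered the calls for anti-IL-4Ra against OVA to 26 genes and changed 1 of 30 member calls, that of Ltb4r1. Causes were not tested.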

Other observations

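The ratio of Alox15 to Alox5 counts within a library, which no scaling can change, was 0.177 to 0.822 in saline libraries, 4.90 to 5.58 in OVA libraries and 0.768 to 2.20 in anti-IL-4Ra libraries. Among the OVA libraries its coefficient of variation was 4.63%, below the 8.57 to 12.1% that counting error alone gives, although Alox15 itself ran from 32.4 to 82.4 CPM and Alox5 from 6.21 to 16.8 CPM there. In the saline group the coefficient of variation was 63.7% and with anti-IL-4Ra 40.9%. The OVA value was the lowest among all the ratios and groups taken. Alox15 and Alox5 had a Pearson r of 0.37 over the 15 libraries after the group means were removed. The Alox15 to Alox12 ratio ran from 0.284 to 1.35, 6.89 to 14.3 and 1.49 to 6.003 in the same order, so both ratios separated OVA from the other groups without overlap. These pairs were chosen after their values were seen, so no test is given.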
